A study of Mus musculus with 6 samples.

Results

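Nitric oxide and polyamines are made from the same amino acid, and the 10 genes described here cover both uses. They were selected by symbol from the 21374 genes of the normalised table: the nitric oxide synthase genes Nos2 and Nos3, the cofactor gene Gch1, the citrulline recycling genes Ass1 and Asl, the arginine transporter gene Slc7a2, the arginase genes Arg1 and Arg2, and the polyamine genes Odc1 and Srm. All 10 were in the table and all passed the filter on low values. The libraries came from distal colon of male C57BL/6 mice, 3 labelled wild type and 3 labelled Otud1-/-, a genotype that lacks a deubiquitinase gene. Both groups had received azoxymethane, a colon carcinogen, by intraperitoneal injection at 6 weeks of age. They then went through 3 cycles of 1.5% dextran sulfate sodium (DSS), which injures the colonic epithelium, for 4 days each, with 14 days of water in each cycle. The tissue was what remained of the tumour-bearing colon once tumours had been taken off, on day 81, at 18 weeks of age, so no group is free of carcinogen and colitis. Whether each library is a separate mouse is not stated, so the p-values speak only of the spread among these 6 libraries, some of which may be technical.

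The targeted gene goes against the labels. Normalised read counts of Otud1 were 111, 45.1 and 48.9 under the wild type label and 141, 149.6 and 208 under the Otud1-/- label (limma, log2 change 1.37 ± 0.35 SE, adjusted p = 0.0934). Otud1 passed as higher without number 1 of both labels (1.89, limma, adjusted p = 0.00495), after scaling to epithelial markers (0.00154), with DESeq2 (0.0148) and with sample weights (0.0442), in a range of 0.00154 to 0.258. The labels do not say which part of Otud1 the deletion takes out. Directions below are therefore between libraries as labelled, Otud1-/- minus wild type. The libraries held 15300937 to 19406407 reads assigned to genes. Along principal component 1, which held 38.8% of the variance, wild type 1 lay at -86.5 and Otud1-/- 1 at 83.3, while the other 4 lay between -25.8 and 28.2. Changes that move by over 1.5 times without these 2 libraries are given both ways, apart from Ddah1, for which only the library values are given. Over all 21281 genes tested, 202 were called at an adjusted p under 0.05 (limma, Benjamini-Hochberg), which is 0.949%: 0.667% were lower and 0.282% higher. Of the called genes 70.3% were lower with the deposited scaling, 60.1% after quantile normalisation, 24.8% after scaling to column sums and 11.7% after scaling to epithelial marker genes. In 26.3% of all genes tested the libraries of the labels did not overlap.

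Arginine enters cells through cationic amino acid transporters such as the product of Slc7a2. Nitric oxide synthases turn it into nitric oxide and citrulline with the help of tetrahydrobiopterin, whose synthesis is limited by the product of Gch1, and Ass1 and Asl turn citrulline back into arginine. Arginases instead split arginine into urea and ornithine, which Odc1 decarboxylates to putrescine and from which the product of Srm makes spermidine. In the inflamed colon Nos2, the inducible synthase, is made by epithelium and by myeloid cells on exposure to interferon gamma, cytokines and bacterial products, and Arg1 marks some macrophages and neutrophils.

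Within each family the coding sequences share only short identical stretches. In GENCODE vM21, Nos2 (3432 bases) and Nos3 (3606 bases) shared no identical run longer than 22 bases. The stretch around this run is shown because it holds the longest identity between the synthases; capitals mark the run. Over the 82 bases shown, 56 were identical (68.3%).
Nos2, bases 848 to 929 of the coding sequence: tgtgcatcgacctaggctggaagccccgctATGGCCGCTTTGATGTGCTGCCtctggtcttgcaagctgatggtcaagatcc
Nos3, bases 815 to 896 of the coding sequence: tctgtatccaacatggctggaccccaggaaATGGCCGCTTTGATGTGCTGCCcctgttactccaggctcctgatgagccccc
The longest run was shorter in the arginases. Arg1 (969 bases) and Arg2 (1062 bases) shared none longer than 12 bases, again in capitals, with 49 of 72 bases identical (68.1%) in the stretch around one such run.
Arg1, bases 493 to 564 of the coding sequence: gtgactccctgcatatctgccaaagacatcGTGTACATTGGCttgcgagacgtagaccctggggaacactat
Arg2, bases 550 to 621 of the coding sequence: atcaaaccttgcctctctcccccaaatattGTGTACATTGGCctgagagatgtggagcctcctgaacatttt

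Other transcripts did share longer stretches with some members. Counted in runs of 50 bases on either strand, Ass1 shared 911 of its 2359 with the processed pseudogene Gm5424, which itself had 195 to 276 normalised reads per library. Odc1 shared at least 30 such runs with 14 other genes, 6 of them in the table, whose summed reads were 168 to 242 per library. The counts of Ass1 and Odc1 are therefore uncertain to the extent that reads were split among copies. On the opposite strand Nos3 overlaps Gm15587 over 1040 exon bases and Atg9b over 294, Slc7a2 overlaps Gm26584 over 635, and Arg2 overlaps Vti1b over 285 and Gm48780 over 116. Whether reads were counted by strand is not given in the sources used here, so reads in these overlaps cannot be assigned. Atg9b had 16.9, 170.2 and 143 normalised reads under the wild type label and 772, 263 and 162 under the Otud1-/- label, against 51.7 to 85.5 for Nos3. Vti1b had 1727 to 2294 normalised reads per library against 29.3 to 66.6 for Arg2. Nos2, Gch1, Asl and Arg1 shared fewer than 30 such runs with any other gene.

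RefSeq start-site windows (GRCm38.p6, 250 bases before to 50 after the start) were at hand for 3 members, Ass1, Odc1 and Gch1. Those of Gch1 and Odc1 are shown, up to the first base that GENCODE annotates as exon, because these abundant genes lay apart between the labels in opposite directions. Capitals mark matches, on either strand, to the GC box GGGCGG, the TATA box TATAAA and the CCAAT box; no other motif searched was found in them.
Gch1, chr14:47189414-47189663, minus strand: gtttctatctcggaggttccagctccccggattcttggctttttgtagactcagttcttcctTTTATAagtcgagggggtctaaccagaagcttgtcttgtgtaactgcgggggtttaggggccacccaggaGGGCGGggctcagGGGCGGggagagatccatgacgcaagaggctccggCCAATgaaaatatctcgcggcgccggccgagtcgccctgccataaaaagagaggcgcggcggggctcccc
Odc1, chr12:17544623-17544793, plus strand: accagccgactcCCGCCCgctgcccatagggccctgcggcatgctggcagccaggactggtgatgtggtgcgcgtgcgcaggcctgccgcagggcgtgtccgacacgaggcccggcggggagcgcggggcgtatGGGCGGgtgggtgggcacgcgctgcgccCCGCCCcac
The stretch of Odc1 was the richer in G and C (77.2% against 59.2% for Gch1). In the full windows Odc1 held 4 GC box matches and Gch1 2, and 35.7% of all 32851 windows held at least 1. Gch1 also held 1 TATAAA, 188 bases before the start, and 1 CCAAT, 70 bases before it, which 13.6% and 37.4% of windows held. The E-box CACGTG (7.15% of windows), the interferon-type motif TTCNNNGAA (8.30%), an NF-kB motif (1.63%) and the cyclic AMP motif TGACGTCA (1.79%) had no match in either full window. The window of Ass1 held CACGTG once. A match, or its absence, describes the letters only.

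Nos2 (ENSMUSG00000020826.8, chromosome 11, 78920787 to 78960254 in GRCm38) was the member that fell. Wild type 1, 2 and 3 held 6490, 6339.9 and 5637 normalised reads of it, and Otud1-/- 1, 2 and 3 held 1971, 1099 and 1758. The groups lay far apart: the highest library labelled Otud1-/- was below the lowest labelled wild type. The means were 6156 ± 455 and 1609 ± 455 (SD, n = 3 each), a 3.82-fold lower level (log2 change -1.98 ± 0.21 SE, limma, adjusted p = 0.00857). Nos2 was the 27th largest fall of the 142 genes called lower. Of the 10 members, 1 was called lower and 0 higher (limma), against 0.667% and 0.282% of all genes tested. On the recovered reads, Nos2 was the 1 member called by edgeR (adjusted p = 0.0264), which called 0.37% of the genes it tested. DESeq2, which called 6.61%, called Nos2 and Gch1.

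The fall of Nos2 kept its direction in every alternative tried, and its size ranged from -2.14 to -1.63 on the log2 scale. Its call was lost when wild type 2 was left out (limma, adjusted p = 0.0703), when wild type 3 was left out (0.0707) and when limma was run without trend and robust (0.114), in a range of 2.19e-14 to 0.114 over 19 alternatives. Without wild type 1 and Otud1-/- 1 together the change was -2.10 (limma, adjusted p = 0.00179). Summed reads of some cell type markers differed between the labels as well. The 15 epithelial markers, all measured and none at 0, summed to 474984 to 564005 normalised reads under the wild type label and to 304648 to 452568 under the Otud1-/- label. Their mean log2 overlapped, at 13.96, 13.90 and 14.11 against 13.39, 14.00 and 13.54. The 13 macrophage and monocyte markers, all measured and none at 0, summed to 15700.3 to 19348 against 10287 to 11280.3. After scaling to the epithelial markers the change of Nos2 was -1.63 (limma, adjusted p = 0.005), or -1.98 relative to the median of all genes, which that scaling moves by 0.34. Sums of neutrophil markers (lower) and smooth muscle markers (higher), given below, did not overlap either. The mean log2 of the 8 neutrophil markers did overlap, and 5 of them had positive changes. The part of any of these cell types in the fall was not tested. In bulk tissue fewer cells of a type and less RNA per cell cannot be told apart.

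**Figure D1:**
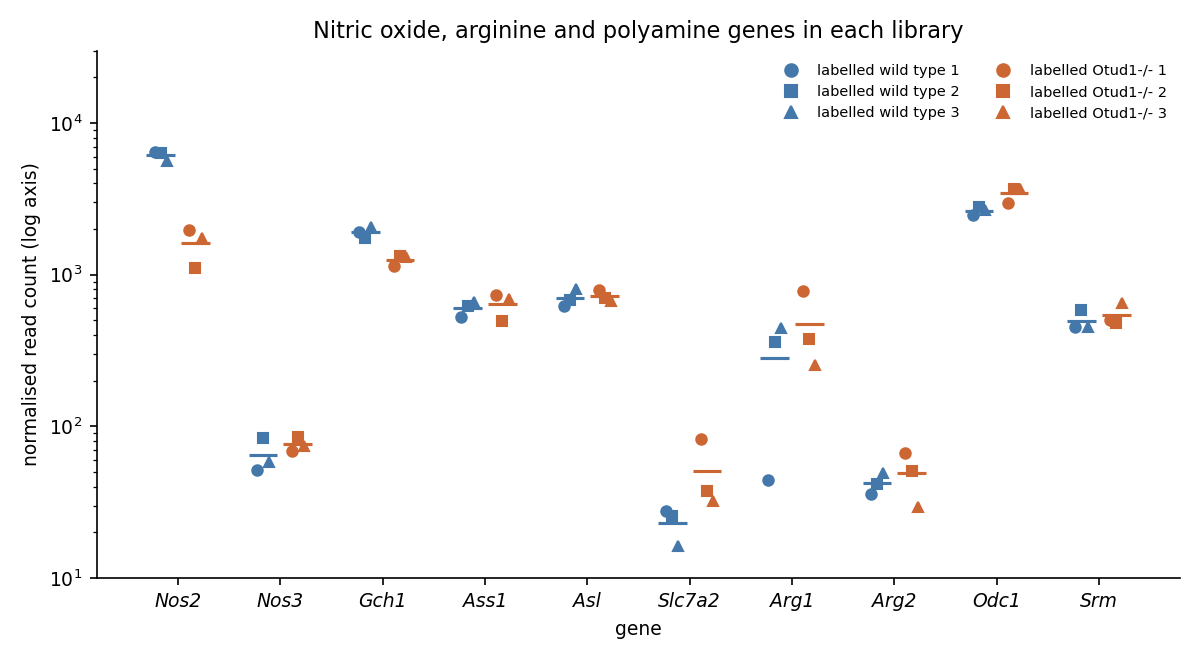
Normalised read counts (log axis) of the 10 genes in each library; points are libraries, horizontal lines the mean of 3 libraries. Nos2 lies between 5637 and 6490 under the wild type label and between 1099 and 1971 under the Otud1-/- label, while most other genes overlap, and Arg1 has a single low library, wild type 1, at 44.3.

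Nos3, the synthase of endothelium (chromosome 5, 24364810 to 24384474), was scarce and overlapped between the labels. Its normalised read counts were 51.7, 83.7 and 58.1 under the wild type label against 69.1, 85.5 and 73.7. Its change was 0.26 ± 0.27 SE (limma, adjusted p = 0.629), with a mean of 64.5 ± 16.9 against 76.1 ± 8.45 (SD, n = 3). The 9 endothelial markers, all measured and none at 0, also overlapped, with sums of 1871 to 2480 and 2071 to 3009. The third synthase gene, Nos1, which is made by enteric neurons, had 207, 220.1 and 161 against 233, 316 and 364. It lay higher in all 3 libraries labelled Otud1-/-, without passing the test (0.62 ± 0.21 SE, limma, adjusted p = 0.161). The 8 enteric neuron and glia markers were also higher in sum without overlap, at 712 to 1035 against 1099.97 to 1213. Their mean log2 overlapped, and their part in the values of Nos1 was not tested. Of the 3 synthases only Nos2 was called, and the differences between their changes were not tested.

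Gch1 (chromosome 14, 47153895 to 47189413) lay lower in the libraries labelled Otud1-/- without overlap, yet missed the threshold. Its normalised read counts were 1907, 1737 and 2072 against 1134, 1331 and 1301. The means were 1905 ± 167 and 1255 ± 106 (SD, n = 3), 1.52-fold apart, with a change of -0.60 ± 0.12 SE (limma, adjusted p = 0.0533). It passed with sample weights (limma, adjusted p = 0.0314) and with DESeq2 on the recovered reads (0.00347), in a range of 0.00347 to 0.541. Its change was smallest after scaling to the epithelial markers, at -0.25, or -0.61 once the median change on that scale is taken off.

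Slc7a2 (chromosome 8, 40862396 to 40922308) had few reads, and all 3 libraries labelled Otud1-/- were above all 3 labelled wild type. Its counts were 27.4, 25.4 and 16.3 against 82.8, 37.1 and 32.3. The difference rested in part on Otud1-/- 1, and the change of 1.01 ± 0.42 SE did not pass (limma, adjusted p = 0.225). It was 0.60 without that library and 0.74 without wild type 1 and Otud1-/- 1.

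The citrulline recycling genes were level between the labels. Ass1, the argininosuccinate synthase gene (chromosome 2, 31470207 to 31520672), had 529.5, 624 and 663 normalised reads against 730.5, 495 and 688, a change of 0.06 ± 0.17 SE (limma, adjusted p = 0.877). Asl, the lyase gene of the next step (chromosome 5, 130011258 to 130029247), had 618, 680.0 and 800.5 against 791, 697 and 668, a change of 0.04 ± 0.13 SE (limma, adjusted p = 0.892). For both genes the groups overlapped, and the sign of the change turned when single libraries were left out. The pseudogene Gm5424, which shares sequence with Ass1, was level too (0.02 ± 0.20 SE, limma, adjusted p = 0.975).

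Arg1, the cytosolic arginase (chromosome 10, 24915221 to 24927484), was the member that varied most within a label. Wild type 1, 2 and 3 held 44.3, 359 and 446 normalised reads, against 783, 373 and 252 for Otud1-/- 1, 2 and 3. Wild type 1 was the lowest library and Otud1-/- 1 the highest, and the other 4 overlapped. The change of 1.12 ± 1.04 SE (limma, adjusted p = 0.612) fell to 0.07 without wild type 1 and to 0.67 without Otud1-/- 1. Without both it was -0.38 (limma, adjusted p = 0.479), in a range of 0.478 to 0.966 over the alternatives. Markers of the myeloid cells that can make Arg1 did not follow the label in 1 way. The 13 macrophage and monocyte markers were lower in sum, as above, and the mean log2 of the 8 neutrophil markers, all measured and none at 0, was 6.66, 7.69 and 7.54 against 7.55, 6.64 and 7.04. Their sum was 7296 to 10137 against 3180.4 to 3787, though 5 of the 8 had positive changes and 3 negative (median 0.12). Their part in the values of Arg1 was not tested.

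Arg2, the mitochondrial arginase (chromosome 12, 79130777 to 79156301), was scarce in all libraries, with 35.9, 41.4 and 48.9 normalised reads against 66.6, 50.6 and 29.3. The groups overlapped (0.15 ± 0.35 SE, limma, adjusted p = 0.858), and the sign turned under sample weights, under quantile normalisation, without Otud1-/- 1 and without number 1 of both labels. Wild type 1, which was lowest for Arg1, was also the lowest of its label for Arg2.

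Odc1 (chromosome 12, 17544794 to 17551505), the entry enzyme of polyamine synthesis, lay higher in the libraries labelled Otud1-/- without overlap. Its counts were 2466, 2789 and 2669.6 against 2965, 3669.7 and 3677. The means were 2641 ± 163 and 3438 ± 409 (SD, n = 3), 1.30-fold apart, and the change of 0.37 ± 0.12 SE did not pass (limma, adjusted p = 0.153). It passed after scaling to column sums (0.58, adjusted p = 0.0434) and to the epithelial markers (0.72, adjusted p = 0.0378), in a range of 0.0378 to 0.401. After quantile normalisation it was 0.56 (limma, adjusted p = 0.0814). Scaling to column sums and to the epithelial markers moves the median of all genes by 0.20 and 0.34, and relative to that median the change of Odc1 was 0.37 on both. The 10 proliferation markers, all measured and none at 0, summed to 8572 to 10108 under the wild type label and to 10509 to 14740.2 under the Otud1-/- label. Their part in the level of Odc1 was not tested.

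Srm, the spermidine synthase gene (chromosome 4, 148591503 to 148594993), overlapped between the labels, with 450.4, 585 and 449.7 normalised reads against 501, 480.4 and 647. Its change was 0.13 ± 0.16 SE (limma, adjusted p = 0.706). In all, 2 of the 10 members had labels that did not overlap with the libraries labelled Otud1-/- lower (Nos2 and Gch1) and 2 with them higher (Slc7a2 and Odc1), against 13.3% and 13% of all genes tested. The median change of the 10 members was 0.14, beside 0.02 over all genes tested.

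**Figure D2:**
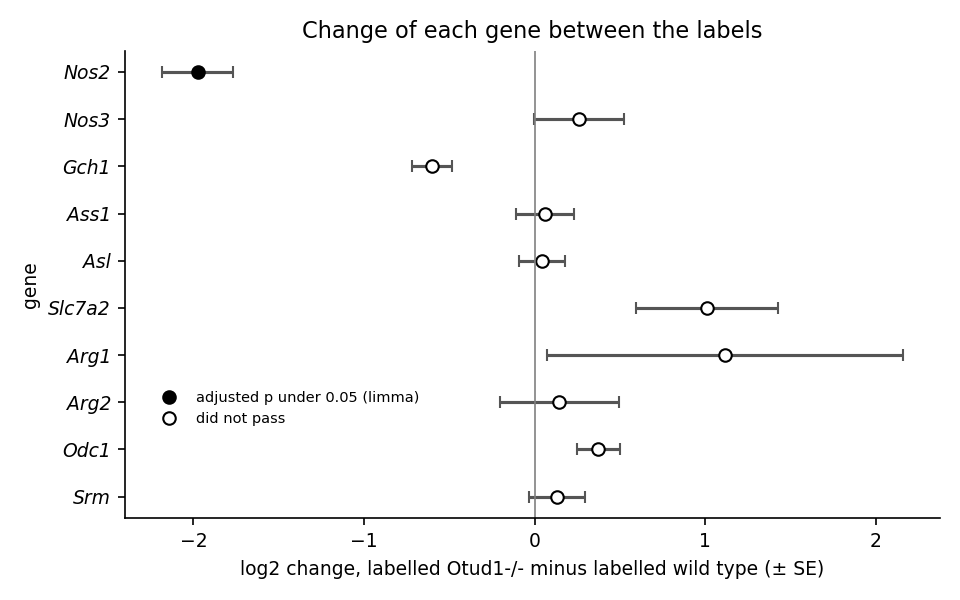
Log2 change of each gene (libraries labelled Otud1-/- minus libraries labelled wild type; bars are limma's standard errors, n = 3 libraries a label). Nos2 at -1.98 is the filled point, called at an adjusted p under 0.05; the 9 open points did not pass, and Arg1 has the widest error.

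Per kilobase of exon, Nos2 was the most abundant member in the libraries labelled wild type and came after Odc1 in those labelled Otud1-/-. The level of Nos2 was 1395 ± 103 normalised reads per kilobase against 365 ± 103 (SD, n = 3), and that of Odc1 776 ± 47.9 against 1009.6 ± 120.1. In the libraries labelled wild type the order went on with Srm (309.6), Gch1 (305), Ass1 (251), Asl (145), Arg1 (127), Arg2 (29.5), Nos3 (15.6) and Slc7a2 (2.52). Srm and Gch1 overlapped there, as did Asl and Arg1 and, through wild type 1, Arg1 and Arg2. In the libraries labelled Otud1-/- Nos2 overlapped with Srm (339), and Srm, Ass1 (264), Arg1 (211) and Gch1 (201) each overlapped with the next in that order. Nos2 went from the 96.4th to the 87.5th percentile of all genes with a length, and Odc1 from the 93.4th to the 95.8th. These levels use the summed exon length of all annotated transcripts, so genes with long rarely used exons come out low.

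Ratios within a library do not depend on its scaling, apart from the pseudocount of 1. The log2 ratio of Nos2 to Ass1 was 3.61, 3.34 and 3.09 under the wild type label against 1.43, 1.15 and 1.35. It lay lower in all 3 libraries labelled Otud1-/-, by 2.04 ± 0.17 SE as the difference of means. The ratio of Nos2 to Arg2 was 7.46, 7.23 and 6.82 against 4.87, 4.41 and 5.86. The ratio of Nos2 to Gch1 was 1.77, 1.87 and 1.44 against 0.80, -0.28 and 0.43, so Otud1-/- 2 had more reads of the cofactor gene than of Nos2. For each of these 3 ratios the groups did not overlap, with p = 0.1 in a two-sided exact permutation test, the lower limit for 3 libraries against 3 (0.167 after Benjamini-Hochberg adjustment over 5 ratios). All 3 have Nos2 as numerator, so they are not separate from each other or from its fall. Without wild type 1 the ratio of Nos2 to Arg2 had an exact permutation p of 0.2. The ratios of Ass1 to Asl and of Odc1 to Srm overlapped, with differences of 0.02 ± 0.17 and 0.24 ± 0.16 SE (exact permutation p = 0.9 and 0.3, adjusted 0.9 and 0.375).

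**Figure D3:**
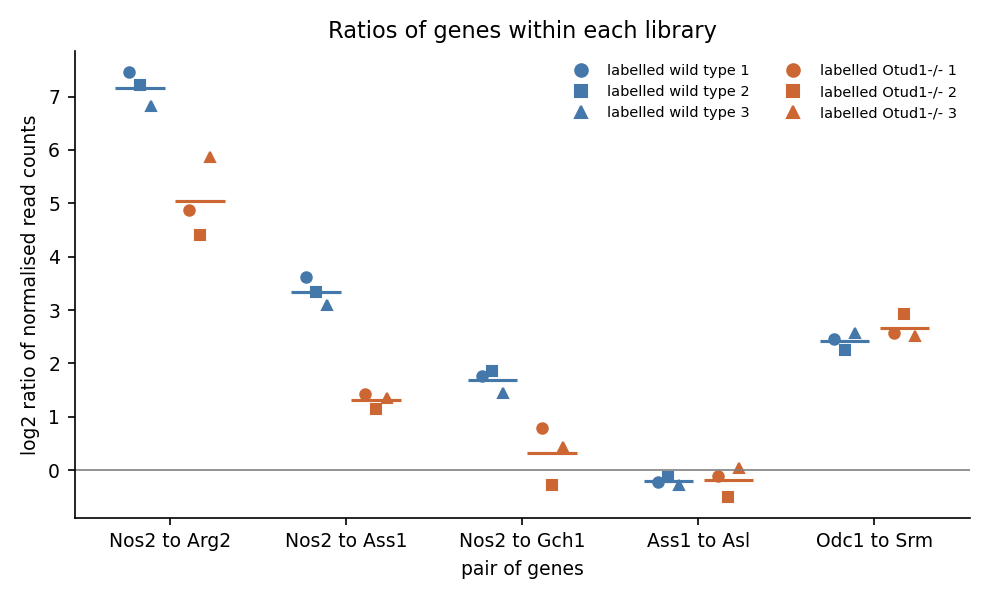
Log2 ratios of normalised read counts within each library for 5 pairs of genes; points are libraries and horizontal lines means of 3. The 3 ratios with Nos2 as numerator lie lower in every library labelled Otud1-/-, and the ratios of Ass1 to Asl and of Odc1 to Srm overlap.

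Other genes of the same pathways were taken from lists by function. Of 14 further genes of nitric oxide handling and its cofactor, 0 were called, against 0.949% of all genes. Their median change was 0.21, beside 0.02 over all genes tested. For Gucy1b1, Ddah2 and Nos1 the libraries labelled Otud1-/- lay higher without overlap. Gucy1b1, a subunit of the nitric oxide receptor guanylate cyclase, had a change of 0.95 ± 0.28 SE (limma, adjusted p = 0.124). It passed after scaling to the epithelial markers (limma, adjusted p = 0.015), without number 1 of both labels (0.0413) and with DESeq2 (0.0339), in a range of 0.015 to 0.287. Ddah2, of the family that breaks down methylated arginines, had a change of 0.90 ± 0.31 SE (adjusted p = 0.186), with Otud1-/- 1 at 766 against 370.1 and 316 in the other two. It was 0.51 without that library and 0.48 without number 1 of both labels. Ddah2 passed after scaling to the epithelial markers (limma, adjusted p = 0.0175) and with DESeq2 (0.0321), in a range of 0.0175 to 0.39. The other gene of that family, Ddah1, named after its values were seen, was more abundant and lay lower without overlap. Ddah1 had 2681, 2597 and 2685 normalised reads against 912, 1813 and 2185 (-0.79 ± 0.31 SE, limma, adjusted p = 0.233). This change rested in part on Otud1-/- 1, at 912, and its size without number 1 of both labels is not given here. Nos1 is described above. The sums of the 9 smooth muscle markers, a tissue in which guanylate cyclase acts, were 35621 to 39118 against 58724 to 121543, all measured and none at 0, and their part in Gucy1b1 was not tested.

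Of 22 further genes of arginine supply and use, 0 were called, against 0.949% of all genes. Their median change was 0.31, beside 0.02 over all genes tested. Pycr1, which makes proline, had 126, 321 and 281 normalised reads against 742, 613 and 371 (1.29 ± 0.42 SE, limma, adjusted p = 0.174). Prodh, which breaks proline down, had a change of 0.74 ± 0.28 SE (limma, adjusted p = 0.209). Both genes lay higher without overlap in the libraries labelled Otud1-/-. Pycr1 passed after scaling to the epithelial markers (limma, adjusted p = 0.00301) and with DESeq2 (0.0122), in a range of 0.00301 to 0.385. Prodh passed after scaling to the epithelial markers (limma, adjusted p = 0.0275), in a range of 0.0275 to 0.621. Without number 1 of both labels the change of Pycr1 was 0.67 and that of Prodh 0.24, and without wild type 1 alone that of Prodh was 0.43. Slc7a7, an exporter of cationic amino acids, lay lower without overlap (-0.40 ± 0.15 SE, adjusted p = 0.188). Gatm, which uses arginine for creatine synthesis, overlapped (-0.84 ± 0.29 SE, adjusted p = 0.173).

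Of 20 further polyamine genes and their regulators, 0 were called, against 0.949% of all genes. Their median change was 0.04, beside 0.02 over all genes tested. Myc, whose product drives Odc1 transcription, had 487, 673 and 467 normalised reads against 1109, 722 and 835. It lay higher in all 3 libraries labelled Otud1-/- (0.71 ± 0.19 SE, limma, adjusted p = 0.108), passing after scaling to the epithelial markers (limma, adjusted p = 0.0148) and with DESeq2 (0.0328) in a range of 0.0148 to 0.29. Without number 1 of both labels the change of Myc was 0.47. The antizyme gene Oaz2, which curbs Odc1, had a change of 0.36 ± 0.11 SE (adjusted p = 0.139), and Mtap, which salvages a by-product of spermidine synthesis, one of 0.63 ± 0.22 SE (adjusted p = 0.164), or 0.39 without number 1 of both labels. Sat1, the acetylase that starts polyamine export and breakdown, lay lower without overlap (6511 ± 339 against 5331 ± 392, change -0.29 ± 0.11 SE, limma, adjusted p = 0.209), and its sign turned after scaling to the epithelial markers (0.06).

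**Figure D4:**
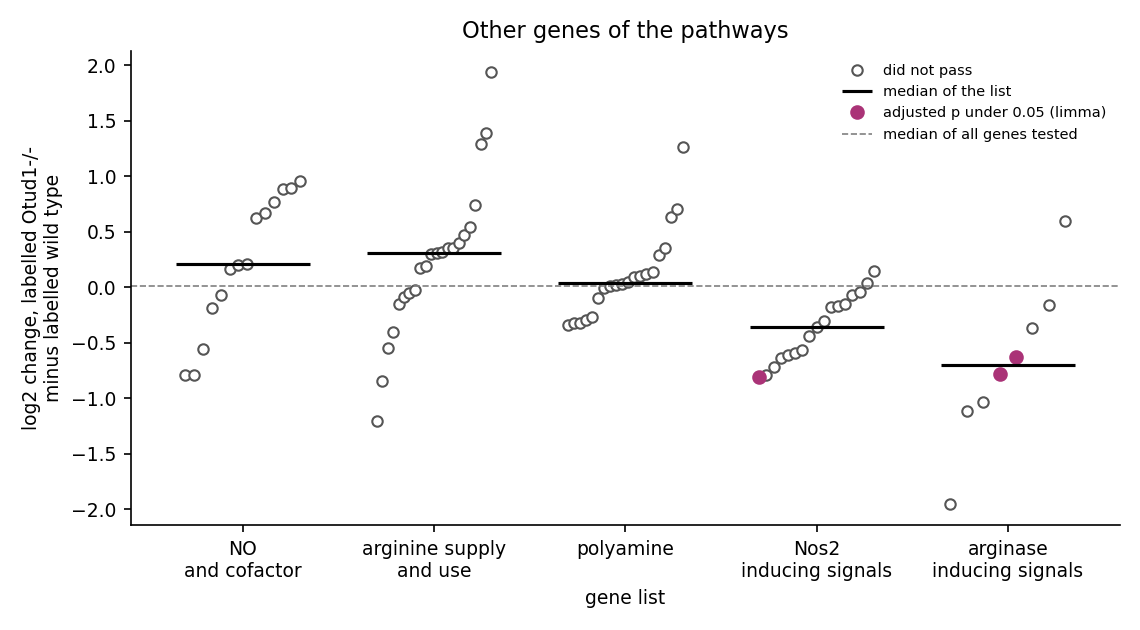
Log2 change of each further gene in 5 lists by function; black lines are list medians and the dashed line the median of all genes tested (0.02). The filled points, 1 among signals that induce Nos2 and 2 among signals that induce arginase, are the genes called at an adjusted p under 0.05, and all 3 are lower in the libraries labelled Otud1-/-.

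Of 17 genes of the signals that induce Nos2, 1 was called lower and 0 higher, against 0.667% and 0.282% of all genes tested. The change was negative in 15 with a median of -0.36, and 9 of the 17 lay lower without overlap, as did 13.3% of all genes tested. Il1b, an inflammatory cytokine gene, fell from 719, 858 and 738 normalised reads to 497, 394 and 433 (-0.81 ± 0.14 SE, limma, adjusted p = 0.038). The call of Il1b ended when wild type 1, 2 or 3 or Otud1-/- 3 was left out (limma, adjusted p = 0.11, 0.146, 0.163 and 0.0834), after scaling to column sums or to the epithelial markers, and with edgeR, in a range of 0.000384 to 0.329. Il1b was also missed by limma without trend and robust (adjusted p = 0.167), and was called in 10 of 19 alternatives. Irf1, a transcription factor that acts downstream of interferon gamma at Nos2, had 4728, 5036 and 4769 against 2229.9, 3521 and 2803. It was lower in all 3 libraries without passing (-0.79 ± 0.16 SE, limma, adjusted p = 0.0558). Irf1 passed without Otud1-/- 1 (limma, adjusted p = 0.0488) or Otud1-/- 2 (0.0249), with sample weights (0.0187) and with DESeq2 (0.00321), in a range of 0.00321 to 0.235. The TNF receptor gene Tnfrsf1a (-0.59 ± 0.12 SE, limma, adjusted p = 0.0552) and the endotoxin receptor gene Tlr4 (-0.72 ± 0.18 SE, limma, adjusted p = 0.0858) also lay lower without overlap. Tnfrsf1a passed in 2 of 19 alternatives and Tlr4 in 1. Ifng itself was near the floor, with 0 to 6.75 normalised reads in any library. Beside these values, all 13 macrophage and monocyte markers had negative changes (median -0.82, 0 called), as did 13 of the 15 epithelial markers (median -0.50, 0 called). Their part in the values of this list and the next was not tested.

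Of 8 genes of the signals that induce arginase, 2 were called lower and 0 higher, against 0.667% and 0.282% of all genes tested. The change was negative in 7, with a median of -0.70, and positive in Il4. Both called genes encode parts of the receptors for interleukins 4 and 13. Il13ra1 fell from 2899.6, 3193 and 2729 normalised reads to 1717, 1527 and 1902 (-0.78 ± 0.12 SE, limma, adjusted p = 0.0318), and Il4ra from 3432, 3261 and 2788 to 2015, 2116 and 1990.1 (-0.63 ± 0.12 SE, limma, adjusted p = 0.0467). The call of Il13ra1 ended when wild type 1, 2 or 3 was left out (limma, adjusted p = 0.113, 0.132 and 0.132), in a range of 7.73e-05 to 0.277. That of Il4ra ended likewise and when Otud1-/- 3 was left out (limma, adjusted p = 0.169, 0.152, 0.12 and 0.103), in a range of 0.00102 to 0.483. Neither passed after scaling to column sums, to the epithelial markers or by quantiles, nor with edgeR. Il4ra also missed when only genes with a mean of at least 5 were tested (limma, adjusted p = 0.0549) and with a pseudocount of 0.1 (0.0513). Il13ra1 was called in 10 of 19 alternatives and Il4ra in 6. Il10 (36.2 ± 16 against 9.3 ± 6.58, limma, adjusted p = 0.0991) and its receptor gene Il10ra (444 ± 223 against 202 ± 31.9, limma, adjusted p = 0.139) lay lower without overlap. Il10 passed in 4 of 19 alternatives and Il10ra in 1. The change of Il10ra was -1.03, or -0.65 without wild type 1 and -0.61 without number 1 of both labels. Il4 had at most 13.7 normalised reads, and Il13, also on the list, was absent by symbol from the normalised table.

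The genes whose profile over the 6 libraries lay closest to that of Nos2 were sought among 11062 genes with a mean of at least 100 normalised reads. The measure was the root mean square difference of log2 values after the mean of each gene was taken off, which is a description of these libraries. The closest were Fer1l6, a ferlin gene (0.26), Adgrf1, an adhesion receptor gene (0.26), Ubd, a ubiquitin-like modifier gene (0.28), Dmbt1, a secreted epithelial scavenger receptor gene (0.29), and Slc28a3, a nucleoside transporter gene (0.29). Adgrf1 had 1158, 1266 and 1456 normalised reads against 285, 238 and 382, and Ubd had 928, 809 and 714 against 335, 236 and 312. In Ubd, as in Nos2, wild type 1 was the highest library and Otud1-/- 2 the lowest. Of the members, Nos3, Slc7a2 and Arg2 had means below 100 and were not compared. None of the other members was among the 5 closest.

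**Figure D5:**
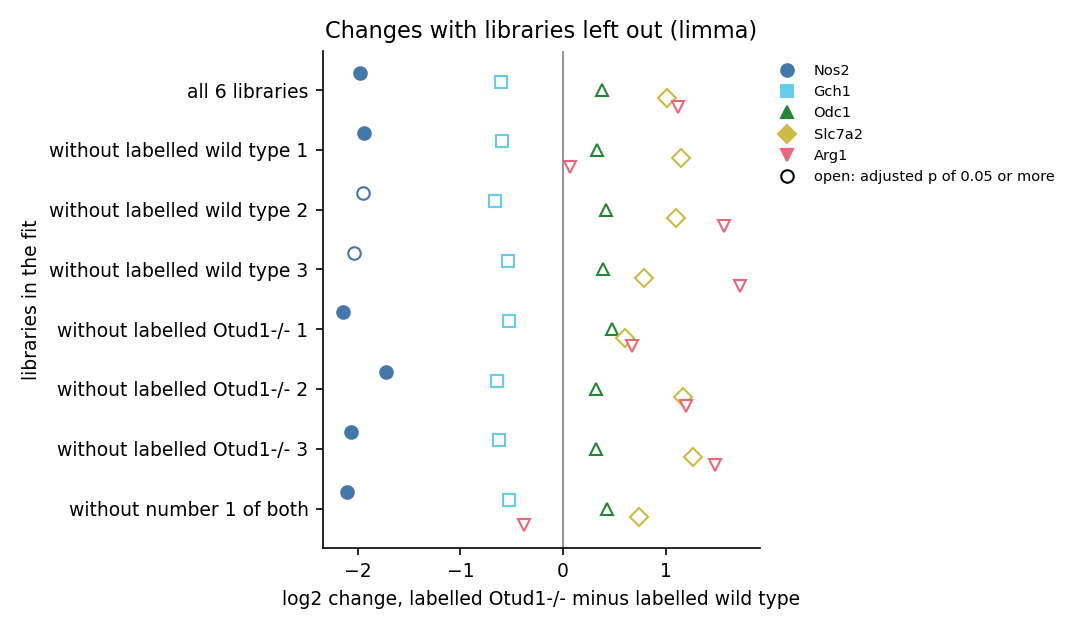
Log2 change of 5 genes with all 6 libraries, with each library left out and with number 1 of both labels left out; filled points have a limma adjusted p under 0.05. Nos2 stays between -2.14 and -1.72 and is open without wild type 2 or 3, while Arg1 moves between -0.38 and 1.72.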

How the data were processed

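The authors deposited a normalised signal per gene. The submitters' processing notes name build mm10; for aligner, counter, strand setting and annotation, the entry is: not given in the sources used here. In each column 100% of values were whole multiples of 1 step (within 0.001 of a read), so the signal is reads divided by a size factor, called normalised reads here. IDs were matched to GENCODE vM21 (GRCm38) without version: 21336 matched and 38 did not.

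Tested were genes that reached a value of 1 in 3 or more libraries (93 left out), with limma 3.58.1 (R 4.3.3; lmFit, eBayes with trend and robust) on log2(value + 1), genotype as the only term, two-sided, Benjamini-Hochberg over all genes. Fold changes on this scale understate changes of genes with few reads. Tests by edgeR 4.0.16 and DESeq2 1.42.0 on recovered reads and the omission of number 1 of both labels were added after the data were seen. The tests were tried on simulated data with the same dispersion set for every gene, and nothing here rests on that trial. Members and lists were chosen with earlier results of these data known. Named were all members, up to 4 genes of each pathway list by smallest p (1 of them is not reported here), the 5 profiles closest to Nos2 (predicted genes and receptor segments left out) and marker lists by their sums. Marker lists of T and NK cells (8 genes), B and plasma cells (7), fibroblasts (7) and enteric neurons and glia (8) had summed normalised reads of 423 to 1231 against 324 to 631, 24756 to 44217 against 17322 to 27882, 12924 to 15339 against 11939.5 to 16462, and 712 to 1035 against 1099.97 to 1213. All were measured, with Klrb1c at 0 in some libraries.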

Additional observations from a re-analysis of the deposited data

How the results depend on the processing

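Number of genes called: 202 became 122 with a mean of at least 5, 118 with a pseudocount of 0.1, 564 with sample weights, 416 after scaling to column sums, 1118 after scaling to the epithelial markers, 394 without number 1 of both labels, 62 with edgeR and 1412 with DESeq2. limma run without trend and robust called 0, though 3499 genes had an unadjusted p below 0.05. Omitting wild type 1, 2 or 3 gave 35, 11 or 10 calls, and omitting Otud1-/- 1, 2 or 3 gave 333, 340 or 114. With the replicate block it was 18. Same-numbered libraries did not deviate together (correlations -0.26, -0.10 and -0.09). With 3 libraries a label these correlations cannot tell whether the numbers pair the libraries. With the block Nos2 kept its call (limma, adjusted p = 0.039).

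Nos2 lost its call without trend and robust (-1.98) and ranged from -2.14 to -1.72 with single libraries left out. Gch1 passed with sample weights (-0.56) and DESeq2 (-0.60), and Odc1 after scaling to column sums (0.58) or the epithelial markers (0.72). Signs turned for Asl (-0.00083) and Arg2 (-0.14) with sample weights, for Arg2 after quantile normalisation (-0.015), and for Ass1 (-0.14), Asl (-0.11), Arg1 (-0.38) and Arg2 (-0.22) without number 1 of both labels. With single libraries left out, Ass1 ranged from -0.046 to 0.23, Asl from -0.041 to 0.15, Arg2 from -0.11 to 0.47, Srm from -0.0018 to 0.26, Arg1 from 0.068 to 1.72, Gch1 from -0.67 to -0.53 and Odc1 from 0.32 to 0.48, and the ratio of Ass1 to Asl from -0.10 to 0.17. Sat1 was 0.060 after scaling to the epithelial markers. The causes were not tested. Depth limits Slc7a2, Arg2 and Nos3 most, which had 16.3 to 85.5 normalised reads.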
